A study of Sus scrofa with 6 samples.

Results

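Cytosolic ribosomal proteins were followed in cells cultured from the ear cartilage of a pig and given GW0742, a synthetic compound that activates the nuclear receptor PPARD. The members were all gene models of the series' RPKM table whose deposited protein annotation names a 60S or 40S ribosomal protein, without texts for kinases or mitochondrial proteins and without models described as pseudogenes. This gave 120 of 19670 models, 72 of the large (60S) and 48 of the small (40S) subunit. They carry 66 protein names, 39 large-subunit and 27 small-subunit ones. The question was whether the change of RPL38, a protein of the large subunit, stood alone among them.

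The cytosolic ribosome has a small subunit that reads the mRNA and a large subunit that joins amino acids, and each holds ribosomal RNA and a set of mostly small, basic proteins. Growing cells make these proteins in near equal amounts, and their mRNAs are among the most abundant of the cell. They begin with a pyrimidine tract through which mTOR and LARP1 control their translation together, a step that mRNA levels do not show. In cartilage, cells that secrete matrix depend on a high rate of protein synthesis. In mice, loss of a copy of Rpl38 disturbs the patterning of the skeleton and the translation of Hox mRNAs.

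The 3 GW0742 libraries came from cells kept for 24 h with GW0742, and the 3 DMSO libraries from cells kept for 24 h with the solvent DMSO. Both groups share the same source, a single pig of 4 months, whose breed was Duroc × (Landrace × Large White) and whose PPARD was wild-type. Nothing in the labels ties a library to a culture of its own, so the p-values reflect spread among libraries that may be of technical origin only. The libraries held 13133980 to 15669916 estimated reads with GW0742 and 13637489 to 16913745 with DMSO. Of the cartilage markers, COL2A1 averaged 474 ± 23.5 CPM with GW0742 and 511 ± 29.2 CPM with DMSO (read counts scaled to library depth, SD, n = 3 each), while MATN1 had fewer than 3 reads in every library. All 8 listed chondrocyte markers together summed to 1879 to 2025 CPM with GW0742 and 2323 to 2460 CPM with DMSO. In 6 of the 7 tested ones the log2 fold change of GW0742 over DMSO was below 0. COL1A2, a fibroblast collagen, had a mean level of 6762 RPKM over the 6 libraries, against 111 RPKM for COL2A1. In such bulk samples, fewer cells of a type and less RNA per cell cannot be told apart.

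Ribosomal protein models took up a large part of the RNA in both groups. They held 4.72%, 4.71% and 4.58% of the reads in GW0742 replicates 1, 2 and 3, and 4.98%, 4.75% and 4.97% in DMSO replicates 1, 2 and 3. The groups did not overlap, but DMSO replicate 2 lay close to the GW0742 libraries. This share covers the members of the rule only. The 33 cytosolic ribosomal protein models outside the rule summed to 14465.6 to 15468.5 CPM (scaled read counts) with GW0742. With DMSO they summed to 14987.3 to 15801.7 CPM, so these groups overlapped. These sums are not on the scale of the share. Whether the groups stay apart in the share of all cytosolic ribosomal protein models was not tested. The closest pair had 95% Wilson intervals of 4.71 to 4.73% in GW0742 replicate 1 and 4.73 to 4.76% in DMSO replicate 2, which cover counting error only. The share averaged 4.67 ± 0.0788% with GW0742 and 4.90 ± 0.133% with DMSO (SD, n = 3 each). Large-subunit models held 2.65 ± 0.0652% of the reads with GW0742 and 2.79 ± 0.0544% with DMSO. Small-subunit models held 2.02 ± 0.0505% with GW0742 and 2.11 ± 0.0826% with DMSO. Within the subunits the spread between libraries was of similar size to the difference for the small subunit and smaller than it for the large one.

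The level differed widely from model to model. Per length, the tested models ran from a mean of 1.10 to 4296 RPKM (reads per length of the model and per depth of the library), with a median of 458 RPKM. RPS20, a protein of the small subunit's head, was the most abundant model at 4296 RPKM. It was followed by RPL8, a large-subunit protein near the peptidyl transferase centre, at 3462 RPKM, RPL23A, which lies by the exit of the nascent chain, at 3001 RPKM, and RPL6 at 2980 RPKM. RPL38 stood at 451 RPKM, rank 43 of the 84 tested models. The 4 lowest tested models were 1 RPL12 model (ENSSSCG00000030021, 1.10 RPKM), 2 RPL31 models (ENSSSCG00000025180 at 2.02 RPKM and ENSSSCG00000000073 at 4.41 RPKM) and 1 RPS24 model (ENSSSCG00000021851, 5.58 RPKM). Each of these names also has a model of far higher level. A total of 36 members had too few reads to test, with means from 0.0111 to 1.04 RPKM and together 0.0133% of the members' reads. Of these 36, 32 share their protein name with another member. Only 1 of the 84 tested members passed the filter on low counts through the GW0742 libraries alone.

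**Figure D1:**
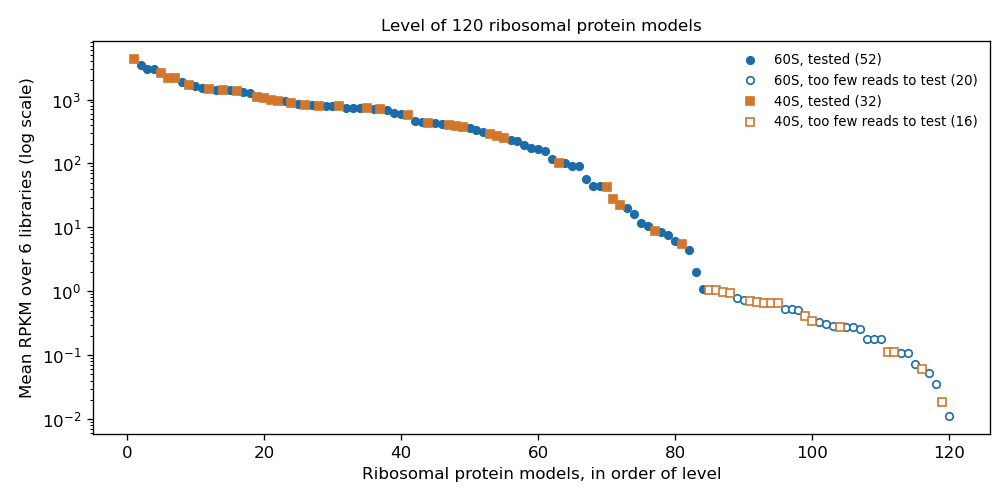
Mean RPKM over the 6 libraries (log scale) of the 120 ribosomal protein models in order of level, filled symbols for the 84 tested and open symbols for the 36 with too few reads, circles for the 60S and squares for the 40S subunit. The tested models span 1.10 to 4296 RPKM, and both subunits are found over the whole range.

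RPL38 fell in GW0742 cells and was the only ribosomal protein model that passed the test. It had 177.3, 187.7 and 186.0 CPM in GW0742 replicates 1, 2 and 3, and 244.5, 240.5 and 242.8 CPM in DMSO replicates 1, 2 and 3. All GW0742 libraries lay below all DMSO libraries, and the 3 DMSO values lay within a few CPM of each other. Underlying these were 2315, 3011 and 2847 reads with GW0742 and 4119, 3203 and 4049 reads with DMSO. The mean was 184 ± 5.61 CPM with GW0742 and 243 ± 1.98 CPM with DMSO (SD, n = 3 each), so that it fell by 24.3%. The log2 fold change was -0.40 ± 0.054 (SE), with an adjusted p of 0.0333 in edgeR's quasi-likelihood test with Benjamini-Hochberg adjustment over 14146 models. Its standard error was the smallest of the 84 tested members. Per length, it had 374, 410 and 394 RPKM with GW0742 and 521, 498 and 510 RPKM with DMSO. RPL38 has 1 model among the 120 members. Whether its reads are shared with a model that the rule left out was not tested.

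The call of RPL38 was lost when single libraries were left out, except in 1 case. With GW0742 replicate 3 left out, its edgeR adjusted p was 0.0497. Without GW0742 replicate 1 it was 0.148, and without GW0742 replicate 2 it was 0.0571. Without DMSO replicates 1, 2 and 3 in turn it was 0.180, 0.0669 and 0.144. The log2 fold change itself stayed between -0.42 and -0.37 in these fits. DESeq2 gave -0.40 with an adjusted p of 3.39e-07. With limma on log2(RPKM + 1) it was -0.38 with an adjusted p of 0.0921. Scaling by total counts alone gave -0.37 with an adjusted p of 0.0541.

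In edgeR, 0 ribosomal protein models were called higher and 1 lower, where 0.184% of all tested models were called higher and 0.0778% lower. Scaled by total counts alone, the calls over all models were 31 higher and 5 lower instead of 26 higher and 11 lower, with 0 members in either direction, beside 0.219% and 0.0353% of all models. At an unadjusted p under 0.05, edgeR had 6 members higher and 28 lower, beside 7.93% and 8.91% of all tested models. DESeq2 called 4 members higher and 12 lower, against 1.46% and 1.65% of all models it tested. With limma on log2(RPKM + 1), 0 members were called in either direction, against 0.134% of all models higher and 0.0212% lower. In 4 members every GW0742 library lay above every DMSO library, and in 29 every GW0742 library lay below. The same held for 11.4% and 12.1% of all tested models.

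Over the members, most values lay slightly below 0, which is given as a description with no test. Their log2 fold change was below 0 in 57 of 84, against 50.3% of all tested models. The median over the members was -0.11, beside 0.00 over all tested models. The quartiles were -0.20 and 0.03 for the members, and -0.14 and 0.15 for all tested models. Large-subunit models had a median of -0.14, with 38 of 52 below 0. Small-subunit models had a median of -0.07, with 19 of 32 below 0. Without DMSO replicate 2 the members' median was -0.15, and with total counts alone it was -0.07 while the median of all models was 0.03.

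Level and length were set beside the same values of other models. The 61 members with a mean of at least 100 CPM had a median log2 fold change of -0.10, and the 1463 other models at that level had -0.02. With length also limited to 1500 bases, the median was -0.10 over 55 members and 0.00 over 371 other models, of which 256 were longer than 800 bases. The gap was not even over length. In each range below, members of any level stand beside other models of at least 100 CPM, so level is not matched there. Up to 450 bases, members of any level had a median of -0.03, with 10 of 20 below 0, and other models of at least 100 CPM had -0.01, with 9 of 17 below 0. Over 450 and up to 600 bases, the range that holds RPL38 at 451 bases, members had -0.11, with 12 of 16 below 0. Other models of that range had -0.03, with 18 of 34 below 0. Over 600 and up to 800 bases, members had -0.17, with 15 of 18 below 0, and other models had -0.04, with 41 of 64 below 0. Over 800 and up to 1500 bases, members had -0.07, with 15 of 22 below 0. Other models of that range had 0.01, with 120 of 256 below 0. Taken relative to all reads on members, RPL38 made up 3.73, 4.08 and 4.12 of 1000 member reads in the GW0742 libraries. In the DMSO libraries it made up 4.90, 4.95 and 4.82 of 1000. The groups stayed apart on this scale, with means of 3.98 ± 0.213 with GW0742 and 4.89 ± 0.0652 with DMSO (SD, n = 3 each). It was computed for RPL38 only, so it cannot show whether RPL38 differs from other members in this.

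**Figure D2:**
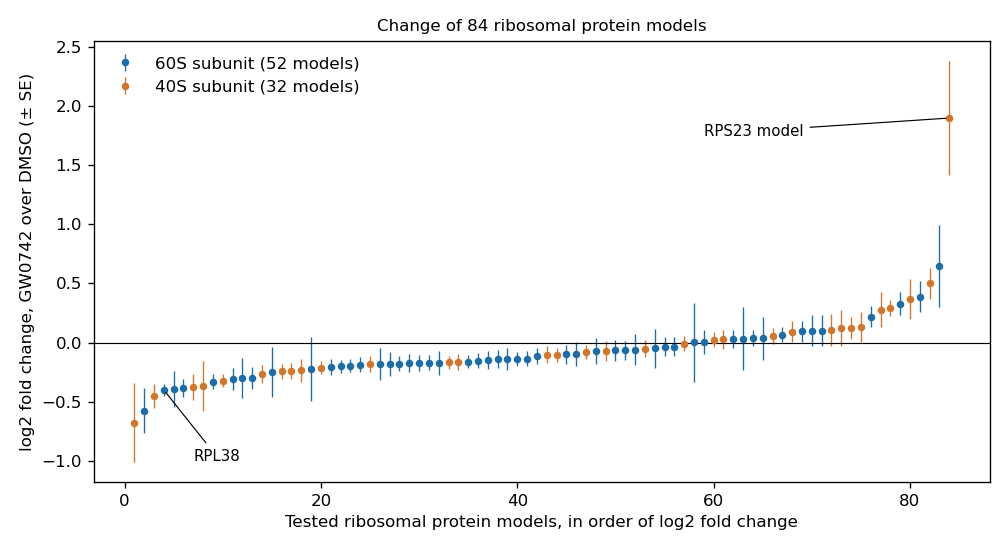
Log2 fold change of GW0742 over DMSO (± SE, edgeR) of the 84 tested ribosomal protein models in order of size, coloured by subunit. RPL38 is the fourth from the left with a short error bar, and the RPS23 model at the right end, at 1.90, has the longest one.

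**Figure D3:**
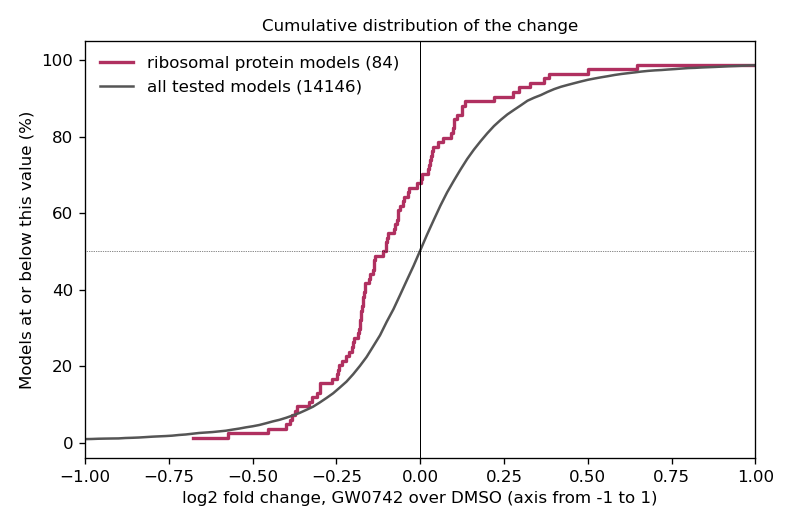
Percent of models at or below each log2 fold change of GW0742 over DMSO, for the 84 ribosomal protein models and for all 14146 tested models, on an axis from -1 to 1. At a log2 fold change of 0 the members' curve stands at 67.9% and the curve of all models at 50.3%.

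No tested member had a smaller p than RPL38, but some had a lower log2 fold change. Among these is RPL22L1, a paralogue of RPL22, which fell short of the level set for named models and is given because of its rank, known after its values were seen. It had a mean of 7.42 ± 1.77 CPM with GW0742 and 11.02 ± 1.30 CPM with DMSO (SD, n = 3 each), a log2 fold change of -0.57 ± 0.19 and an edgeR adjusted p of 0.190. Another is 1 of the 2 RPS21 models, described with its partner further on.

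RPL35A, which is mutated in some patients with the anaemia named after Diamond and Blackfan, had 181.5, 171.1 and 207.1 CPM with GW0742 and 244.8, 243.5 and 240.9 CPM with DMSO. All GW0742 libraries lay below the DMSO libraries, and the spread was wider among the GW0742 libraries. Its log2 fold change was -0.38 ± 0.076 with an edgeR adjusted p of 0.0776, and with each library left out in turn that p was 0.0388 without GW0742 replicate 3 and 0.114 to 0.298 in the other 5 fits. Leaving out GW0742 replicate 3 also gave more calls over all models, 54 higher and 47 lower. RPL34 had 215.3, 213.8 and 199.2 CPM with GW0742 and 272.3, 246.7 and 271.1 CPM with DMSO. Again the groups did not overlap, and the log2 fold change was -0.33 ± 0.064 with an edgeR adjusted p of 0.0764. RPL6 had 2491, 2895 and 2392 CPM with GW0742 and 3115, 3579 and 2943 CPM with DMSO. Its highest GW0742 library came near its lowest DMSO library, and the log2 fold change was -0.31 ± 0.096 (edgeR adjusted p = 0.169).

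Among small-subunit proteins, RPS20 had 2173, 2065 and 1998 CPM with GW0742 and 2585, 2537 and 2671 CPM with DMSO. The groups lay well apart at this level, which is the highest per length of all members. Its log2 fold change was -0.32 ± 0.058 with an edgeR adjusted p of 0.0692 and a DESeq2 adjusted p of 1.55e-05. The more abundant RPSA model (ENSSSCG00000011266), for the protein also known as the laminin receptor, had 1118, 1375 and 1263 CPM with GW0742 and 1866, 1416 and 1583 CPM with DMSO. DMSO replicate 2 was close to GW0742 replicate 2, and the log2 fold change was -0.37 ± 0.11 (edgeR adjusted p = 0.162). RPS20, RPL34, RPL35A, the RPS21 model ENSSSCG00000002529 and RPS6 were the 5 members with an edgeR adjusted p from 0.05 to 0.11, and 4 of them lay below DMSO.

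**Figure D4:**
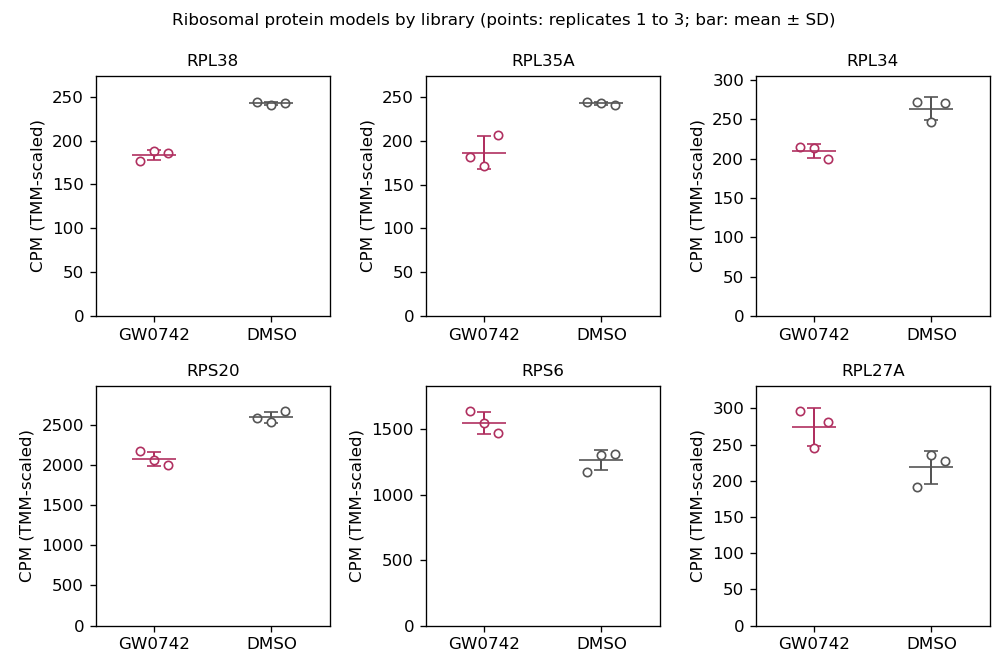
TMM-scaled CPM of RPL38, RPL35A, RPL34, RPS20, RPS6 and RPL27A in each library (circles, replicates 1 to 3 from left to right) with mean ± SD, GW0742 left and DMSO right, each axis starting at 0. In the first 4 panels the GW0742 libraries lie below the DMSO libraries, in the last 2 above, and RPL38 alone passed the edgeR test.

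A smaller set of members lay above DMSO, and 0 of these passed the edgeR test. RPS6, the small-subunit protein phosphorylated by the S6 kinases, had 1635, 1544 and 1467 CPM with GW0742 and 1175, 1304 and 1312 CPM with DMSO. The groups did not overlap, and the log2 fold change was 0.29 ± 0.069 (edgeR adjusted p = 0.107, DESeq2 adjusted p = 0.00277). A second, weaker RPS6 model (ENSSSCG00000005274) had a log2 fold change of 0.50 ± 0.13 at 25.02 ± 4.10 CPM with GW0742 and 17.6 ± 1.39 CPM with DMSO (edgeR adjusted p = 0.125). RPL27A had 295.9, 244.5 and 281.2 CPM with GW0742 and 191.8, 235.3 and 227.9 CPM with DMSO. Its groups were separated by a narrow gap, with a log2 fold change of 0.33 ± 0.097 (edgeR adjusted p = 0.162). RPL36 had 499.7, 379.7 and 437.6 CPM with GW0742 and 346.7, 277.5 and 383.3 CPM with DMSO. These groups overlapped, and the log2 fold change was 0.39 ± 0.13 (edgeR adjusted p = 0.198). In members with a log2 fold change above 0, GW0742 replicate 1 was the highest GW0742 library in 21 of 27. Over all tested members it was the highest in 46 of 84.

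The highest log2 fold change belonged to an RPS23 model (ENSSSCG00000024660), whose protein lies by the decoding centre of the small subunit. It had 43.3, 37.0 and 12.9 CPM with GW0742 and 4.39, 13.4 and 7.62 CPM with DMSO. GW0742 replicate 3 fell among the DMSO values, so the groups overlapped. The log2 fold change was 1.90 ± 0.48 with an edgeR adjusted p of 0.124, and without GW0742 replicate 3 it was 2.27 with an adjusted p of 0.0497, against 0.119 to 0.353 in the other 5 fits without a library. The model with the symbol RPS23 (ENSSSCG00000014133) is not a member, because its protein text names no ribosomal protein. That model had 298.4, 289.7 and 301.0 CPM with GW0742 and 389.0, 344.7 and 380.0 CPM with DMSO. Summed over 3 RPS23 models, GW0742 libraries had 342.1, 327.1 and 314.4 CPM and DMSO libraries 393.8, 358.7 and 388.1 CPM. The sum thus lay below DMSO in every GW0742 library, opposite in direction to the member. The counts are estimates that can be divided between near-identical models, so the values of models that share a protein name are uncertain one by one. How far such division sets these opposite values was not tested.

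Models of the same protein name could differ in sign. Of 16 protein names with more than 1 tested model, 9 had models on both sides of 0. For 1 of these, RPL12, this holds only through the model that passed the filter on low counts by its GW0742 libraries. In some others a value lay near 0. The models of RPL23A stood at -0.04 and 0.04 and those of RPS19 at -0.01 and 0.09. The highest RPL31 model stood at 0.03. RPS21 had the widest gap. Its model ENSSSCG00000002529 had 123.1, 132.4 and 108.8 CPM with GW0742 and 178.7, 143.6 and 176.7 CPM with DMSO, a log2 fold change of -0.45 ± 0.10 (edgeR adjusted p = 0.101). Its model ENSSSCG00000021825, which carries the symbol, had 300.8, 186.7 and 218.1 CPM with GW0742 and 168.1, 164.9 and 212.3 CPM with DMSO, a log2 fold change of 0.37 ± 0.17 (edgeR adjusted p = 0.320). Summed, RPS21 had 357 ± 58.4 CPM with GW0742 and 348 ± 40.2 CPM with DMSO, and a log2 fold change of 0.03 ± 0.12. The low value of the first model was thus not seen for the protein name as a whole.

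RPS16 gave a like pattern. Its models had log2 fold changes of 0.28 ± 0.15 (ENSSSCG00000020817, edgeR adjusted p = 0.388) and -0.24 ± 0.070 (ENSSSCG00000010712), and their sum had 0.04 ± 0.099. For RPSA the weaker model stood at 0.12 ± 0.094, and the sum at -0.28 ± 0.091 with an edgeR adjusted p of 0.182. The sum of RPSA had 1503, 1684 and 1572 CPM with GW0742 and 2168, 1708 and 1908 CPM with DMSO, groups that did not overlap. RPL32 had 1 model at 0.22 ± 0.086 (ENSSSCG00000027637, 689 ± 80.3 CPM with GW0742 and 591 ± 26.4 CPM with DMSO, edgeR adjusted p = 0.253) and 2 models below 0, and its sum was 0.17 ± 0.078. RPS6, with both tested models above 0, kept 0.30 ± 0.069 when summed (edgeR adjusted p = 0.106).

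**Figure D5:**
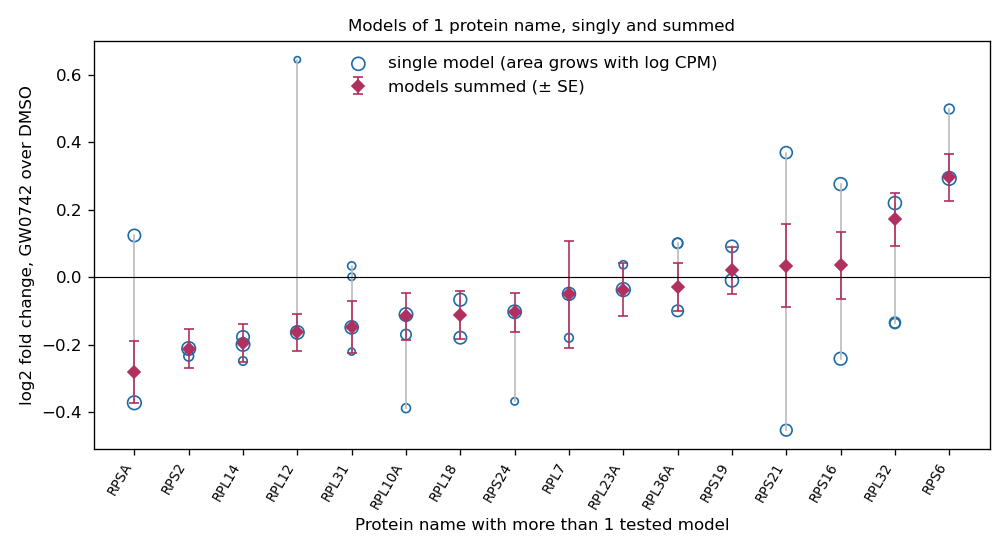
Log2 fold change of GW0742 over DMSO for the 16 protein names with more than 1 tested model, open circles for single models (larger with higher CPM) and diamonds for the models summed (± SE, edgeR). RPS21 and RPS16 have well-counted models on both sides of 0 and sums of 0.03 and 0.04.

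Summing the member models of each protein name left 62 names to test. RPL38 remained the only name called, with an edgeR adjusted p of 0.0327, and 0 names were called higher, where 0.0779% of the features in this fit were called lower and 0.184% higher. The log2 fold change was below 0 in 43 of 62 names, with a median of -0.10, beside 50.3% below 0 over all models tested singly. In 3 names every GW0742 library lay above every DMSO library, and in 23 every one lay below, beside 11.4% and 12.1% of all models tested singly. Some of the most abundant members lay near 0. RPL8 had a log2 fold change of 0.04 ± 0.070 (edgeR adjusted p = 0.833), and RPL23A had -0.04 ± 0.080 as a single model (edgeR adjusted p = 0.854). The 4 tested models of lowest level had log2 fold changes from -0.37 to 0.65 with edgeR adjusted p from 0.389 to 0.966. The highest of these values belongs to the RPL12 model, which had 13, 12 and 11 reads with GW0742 and 6, 10 and 8 reads with DMSO. It is the member that passed the filter on low counts through the GW0742 libraries alone, so its value supports nothing further.

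The stalk proteins, RACK1 and the proteins of the mitochondrial ribosome were set beside the members. The acidic stalk proteins RPLP1 and RPLP2, which recruit translation factors, and the scaffold RACK1 had log2 fold changes of -0.01 ± 0.10, 0.14 ± 0.11 and 0.02 ± 0.087 (edgeR adjusted p from 0.560 to 0.962). Of 75 tested mitochondrial ribosomal protein models, edgeR called 0, and its unadjusted p was under 0.05 for 6 higher and 8 lower ones. DESeq2 called 1 of them higher and 2 lower, and limma called 0. Their median log2 fold change was 0.00, with 38 of 75 below 0. Over all tested models, 7.93% were higher and 8.91% lower at an unadjusted edgeR p under 0.05. DESeq2 called 1.46% of all models it tested higher and 1.65% lower. These shares also stand beside the counts of the lists that follow.

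The genes that build the ribosome had medians slightly above 0. Of 35 ribosome assembly factors edgeR called 0, while DESeq2 and limma also called 0 and edgeR's unadjusted p was under 0.05 for 5 higher and 1 lower. Their median log2 fold change was 0.05, with 17 of 35 below 0. RRS1, needed to make the large subunit, was the highest at 0.36 ± 0.12 (edgeR adjusted p = 0.189), and GAR1, of the pseudouridylation complex, the lowest at -0.75 ± 0.51 (edgeR adjusted p = 0.496). Of 9 genes for RNA polymerase I and its factors, edgeR, DESeq2 and limma called 0, and at an unadjusted p under 0.05 edgeR had 1 higher and 0 lower. Their median was 0.08, with TAF1A highest at 0.30 ± 0.12 and UBTF lowest at -0.12 ± 0.062 (edgeR adjusted p = 0.270 and 0.380).

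Translation factors were called in 0 cases by edgeR and limma. Of 33 listed initiation factors, 23 were matched to a model and tested. Their median log2 fold change was -0.06, with 15 below 0. In edgeR, 0 higher and 1 lower had an unadjusted p under 0.05. The log2 fold changes ran from -0.20 ± 0.11 for EIF3J to 0.19 ± 0.16 for EIF4E, the cap-binding protein (edgeR adjusted p = 0.398 and 0.591), and DESeq2 called 0. Every GW0742 library lay below every DMSO library in 5 of these factors and above in 0, beside 12.1% and 11.4% of all tested models. Together they summed to 7144 to 7254 CPM with GW0742 and 7401 to 7435 CPM with DMSO. The 5 tested genes of the elongation factor list, which also holds the kinase EEF2K, had a median of -0.09. At an unadjusted p under 0.05 in edgeR there were 1 higher and 1 lower. EEF1A1, EEF1A2, EEF1G, EIF5A and TPT1 of this list were matched to no model. EEF2, which moves the ribosome along the mRNA, had 2710, 2885 and 3168 CPM with GW0742 and 3462, 3584 and 3491 CPM with DMSO. Its groups did not overlap, and its log2 fold change was -0.27 ± 0.069 (edgeR adjusted p = 0.125, DESeq2 adjusted p = 0.00954). EEF2K, which inhibits EEF2 and is not itself an elongation factor, was the highest of the list at 0.18 ± 0.067 (edgeR adjusted p = 0.224). Among 9 genes that control ribosomal protein mRNAs or respond to free ribosomal proteins, edgeR, DESeq2 and limma called 0, and in edgeR 1 higher and 1 lower had an unadjusted p under 0.05. Their median was 0.03, with the S6 kinase gene RPS6KB1 highest at 0.21 ± 0.089 and EIF4EBP1, a target of mTOR, lowest at -0.19 ± 0.057 (edgeR adjusted p = 0.272 and 0.162).

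Marker lists moved beside these values. Chondrocyte markers summed to 1879 to 2025 CPM with GW0742 and 2323 to 2460 CPM with DMSO, and 6 of 7 tested ones had a log2 fold change below 0. ACAN, the gene of the proteoglycan aggrecan, was the only marker called in edgeR, with 576 ± 16.4 CPM with GW0742 and 816 ± 34.1 CPM with DMSO and a log2 fold change of -0.50 ± 0.058 (edgeR adjusted p = 0.0185). DESeq2 called 7 markers in all, PECAM1 and KDR of the endothelial list higher, and ACAN, COL11A1, ACTA2, CNN1 and THY1 of the other lists lower. Over all tested models, edgeR called 0.184% higher and 0.0778% lower, and DESeq2 called 1.46% and 1.65%. Smooth muscle markers summed to 8381 to 10122 CPM with GW0742 and 10352 to 10772 CPM with DMSO, with 5 of 6 below 0. Fibroblast markers summed to 46622 to 52063 CPM with GW0742 and 52336 to 56641 CPM with DMSO, with 3 of 4 below 0. Endothelial markers summed to 98.4 to 133.4 CPM with GW0742 and 63.0 to 88.6 CPM with DMSO, and 6 of 6 tested ones had a log2 fold change above 0, with PECAM1 at 1.16 ± 0.26 (edgeR adjusted p = 0.0977). Keratinocyte, immune and melanocyte markers summed to at most 5.51, 31.1 and 20.1 CPM in any library, and adipocyte and erythrocyte markers to at most 0.534 and 0.451 CPM, with some genes of each list other than the melanocyte list matched to no model. COL1A1 and PDGFRA of the fibroblast list, CDH5 and VWF of the endothelial list and MYOCD of the smooth muscle list were also matched to no model. The part of the cell mixture in the values of RPL38 and of the other members was not tested.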

How the data were processed

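Per the labels' protocols, RNA was enriched for mRNA with oligo(dT), fragmented and reverse transcribed from random hexamers, and the libraries were run on the Ion Proton platform. The deposited library tables hold an estimated count of reads per gene model, and the deposited series table holds RPKM values, both made by the authors. The build was Sscrofa 10.2, per the submitters' processing notes. Neither the aligner nor the counting program is given in the sources used here. Strand marking is not mentioned, so genes that overlap on opposite strands may share reads.

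Estimated counts were rounded and tested with edgeR 4.0.16 (filterByExpr with a minimum count of 10, TMM, quasi-likelihood test) over 14146 models, with Benjamini-Hochberg adjustment and a threshold of 0.05. CPM values are TMM-scaled. Alternatives were DESeq2 1.42.0, limma 3.58.1 on log2(RPKM + 1) and log2(RPKM + 0.1), other scalings, no filter, each library left out, and member models summed by protein name. In counts simulated for this comparison over 13999 models, edgeR recovered 44.8% of 1.5-fold, 71.6% of 2-fold and 97.0% of 4-fold changes. It made 157 calls there, of which 15 were false.

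Protein names came from the deposited annotation text or, for 20 members, from the gene symbol table. Elsewhere, symbols came from that table (11147 models) or from RefSeq proteins (567 models, assembly Sscrofa 11.1), and 97.6% of 2451 models named by both routes had the same name. Named models are RPL38, members past the threshold, the 8 highest and the 8 lowest log2 fold changes at a mean of 10 CPM or more, the 4 highest and the 4 lowest RPKM means, and the extremes of each pathway list; 1 item among them is not reported here. The members and lists were chosen with earlier results of these data known. Same-numbered libraries of the 2 groups did not deviate together, and no 2 libraries agreed within counting noise.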

Additional observations from a re-analysis of the deposited data

How the results depend on the processing

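Members called lower were 1 in the edgeR test, 12 with DESeq2 and 0 with limma (both pseudocounts), without a filter on low counts, with total counts alone, with an adjusted p under 0.01 and with a replicate block. Members called higher were 0, and 4 with DESeq2. With 1 library left out, 0 to 1 members were called higher and 0 to 2 lower, 6 to 54 models of all higher and 0 to 47 lower. Over all models, 26 were called higher and 11 lower, with DESeq2 207 and 234, with limma on log2(RPKM + 0.1) 17 and 4, on log2(RPKM + 1) 19 and 3, without a filter 13 and 3, with a replicate block 10 and 0, with total counts 31 and 5, and with an adjusted p under 0.01 6 and 0. The log2 fold change of RPL38 was -0.38 with limma at both pseudocounts (adjusted p = 0.0976 and 0.0921), -0.40 without a filter (0.0840), -0.40 with a replicate block (0.142) and -0.37 with total counts (0.0541), and -0.42 to -0.37 with 1 library left out. The cause of these losses was not tested. Same-numbered libraries correlated at -0.0002, -0.038 and -0.099 in their deviations, and differently numbered ones at -0.041 to 0.080. Low correlations cannot show whether equal numbers mark a shared culture, which the labels do not say.

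The members' median was -0.15 to -0.11 with 1 library left out and -0.07 with total counts. It was -0.07 over members whose symbol starts with RPL or RPS and -0.10 over members of at least 10 CPM. Over names with 1 model and over members of at least 100 CPM it was -0.15 and -0.10. These last 2 alternatives were chosen after seeing the data. The difference in the members' share, GW0742 minus DMSO, was -0.228 percentage points of reads and -0.343 of the summed RPKM, and -0.305 to -0.183 with 1 library left out. Among 21 other named models, 274 values stayed on their side of the threshold, 12 passed it and 8 changed sign. Those that changed sign were the sums of RPS21 (0.034), RPL12 (-0.16) and RPL31 (-0.15), RPL23A (-0.092 to 0.023), RPL8 (-0.0069 to 0.10) and RPL31 ENSSSCG00000025180 (-0.27 to 0.21) with 1 library left out. With 3 libraries per group, the simulation recovered 44.8% of 1.5-fold changes, and RPL38 changed by less than 1.5-fold. The changed models were drawn from all levels, so this share does not give the recovery at the level of RPL38. Of the 157 calls in the simulation, 15 were false, a larger share than the threshold of 0.05 aims for.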

Other observations

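Ribosomal protein models that the rule left out were measured too. Of 33 models that a symbol or a differently worded text ties to a cytosolic ribosomal protein, the acidic stalk proteins among them, 20 could be tested. Their median log2 fold change was -0.09, with 14 of 20 below 0. In edgeR and limma 0 of them were called. DESeq2 called 0 higher and 1 lower, beside 1.46% and 1.65% of all models it tested. At an unadjusted p under 0.05 edgeR had 1 higher and 4 lower, beside 7.93% and 8.91% of all tested models. RPS3, a small-subunit protein at the entry of the mRNA channel, had 1314 ± 80.4 CPM with GW0742 and 1500.1 ± 61.4 CPM with DMSO (SD, n = 3 each), a log2 fold change of -0.19 ± 0.066 (edgeR adjusted p = 0.200). RPS23, described above, stood at -0.33 ± 0.063 (edgeR adjusted p = 0.0763).

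Of 61 ribosomal protein models described as pseudogenes, 20 had enough reads to test, with a median log2 fold change of 0.08 and 7 of 20 below 0. In edgeR and limma 0 were called. Beside 1.46% and 1.65% of all models it tested, DESeq2 called 0 higher and 1 lower. Beside 7.93% and 8.91% of all tested models, edgeR had 3 of the pseudogene models higher and 2 lower at an unadjusted p under 0.05. The model with the most reads among them, an RPL9-like model (ENSSSCG00000012427), had a mean of 1066 RPKM, above the 117 RPKM of the RPL9 member. It had 620.8, 585.6 and 587.1 CPM with GW0742 and 720.2, 695.9 and 702.7 CPM with DMSO, groups that did not overlap. Its log2 fold change was -0.24 ± 0.055 (edgeR adjusted p = 0.102), beside -0.20 ± 0.056 for the RPL9 member (edgeR adjusted p = 0.151). Both models were picked after their values were seen.

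Some members had the same values in every library. This held for 10 members in 5 groups, among them 2 tested RPL36A models at 92.8 RPKM, which count as 2 of the 84 tested members although they carry the same numbers.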
